A study of Mus musculus with 4 samples.

Results

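The genes described here handle iron and heme in the gut: Cybrd1, Slc11a2, Tfrc, Slc40a1, Heph, Fth1, Alas2 and Hmox1. They were taken by symbol, as every probe set that the array annotation gives to these 8 genes, of 18193 genes with a probe set of their own. That gave 19 of the 45101 probe sets on the array, and 3 of the 19, all for Tfrc, are control probe sets. In the intestinal epithelial cells (IECs) the iron exporter Slc40a1 had a 2.30-fold higher signal in colonized than in germ-free (GF) mice, and the erythroid heme synthesis gene Alas2 a 3.99-fold lower one. The ferroxidase Heph was 1.58-fold lower there. The transferrin receptor Tfrc was 1.59-fold lower in the IECs by its leading probe set, but its probe sets differed in direction. RNA of the iron storage gene Fth1 differed little. In the Peyer's patch (PP), the lymphoid follicles of the small intestine, no measured probe set of these genes reached 2-fold.

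RNA came from C57BL/6 mice housed in gnotobiotic isolators, which had either no bacteria at all or a single species, Lactobacillus NK318.1. The colonized mice were GF animals given 100000000 bacteria and were sampled 2 weeks later. PP cells and IECs of each kind of mouse were compared, so that the 4 groups were GF PP, NK318.1 PP, GF IEC and NK318.1 IEC. Each group was 1 Affymetrix array, the study describes pooled samples, and the sex of the mice on the arrays was not given in the sources used here. Isolator mice were 4 weeks old at oral transfer per the general transplant methods, which do not name these arrays.

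Dietary iron reaches the enterocyte as ferrous iron after reduction at the brush border, enters through the transporter DMT1, and is either stored in ferritin or exported into blood by ferroportin with the help of a ferroxidase. All cells can also take up iron bound to transferrin. Much of the body's iron sits in heme, which developing red cells make in bulk and which macrophages break down to recover the metal.

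The values are linear MAS5 intensities, and each difference is the log2 ratio between a pair of arrays. Intensities below 15.5 were raised to that floor, a probe set counted as measured if either array lay above it, and a ratio against a raised value is a bound. With 1 array per group there was no replicate, no test and no p-value, and 2-fold, the study's own fold limit, served as the only limit. Intensities of different probe sets are on no common scale and were not ranked against each other.

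The NK318.1 IEC array stood apart. Stomach mucosa markers had a summed intensity of 561 on the GF and 37133 on the NK318.1 IEC array, with 13 of 15 at least 2-fold higher, and pancreatic markers had 6129 and 20169, with 13 of 16 higher. Lymphocyte and leukocyte markers went from 6067 to 807, with 8 of 15 at least 2-fold lower. Absorptive enterocyte markers, which summed to between 331 and 350 in the PP, had 51563 and 36136 in the IECs, and 20 of 21 were lower on the NK318.1 array. The 3′ to 5′ signal ratio of β-actin, which rises as RNA breaks down, was 2.73 and 4.10 in the IECs against 1.60 and 1.74 in the PP. The part of these differences in the iron gene ratios was not tested. Sex-linked genes separated the GF from the colonized arrays in both tissues. Xist, which silences an X chromosome in female cells, had intensities of 21.7 in GF PP and 4586 in NK318.1 PP, and of 46.7 in GF IEC and 4889 in NK318.1 IEC. The Y-linked gene Eif2s3y had 300.1 and 3.0 in the PP and 147 and 2.41 in the IECs, and the Y-linked Kdm5d and Uty were likewise above the floor on both GF arrays and below it on both colonized arrays. For every gene below, X-linked ones such as Alas2 included, colonization and whatever set the sex-linked genes apart cannot be told apart. Fewer cells of a type and less RNA per cell cannot be told apart in such samples.

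Of the 16 probe sets that are not controls, 13 were measured in the PP, and 0 were at least 2-fold higher or lower on the NK318.1 array. The background over all measured probe sets was 0.131% higher and 0.409% lower. In the IECs 15 were measured, of which 2 were at least 2-fold higher, against 2.57% of all, and 1 was lower, against 1.35% of all. The 2 higher ones both belong to Slc40a1, and the lower one is the only probe set of Alas2. The other members lay within 2-fold in each tissue on every probe set measured there, and the plot of the intensities shows how close most pairs of arrays were.

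**Figure D1:**
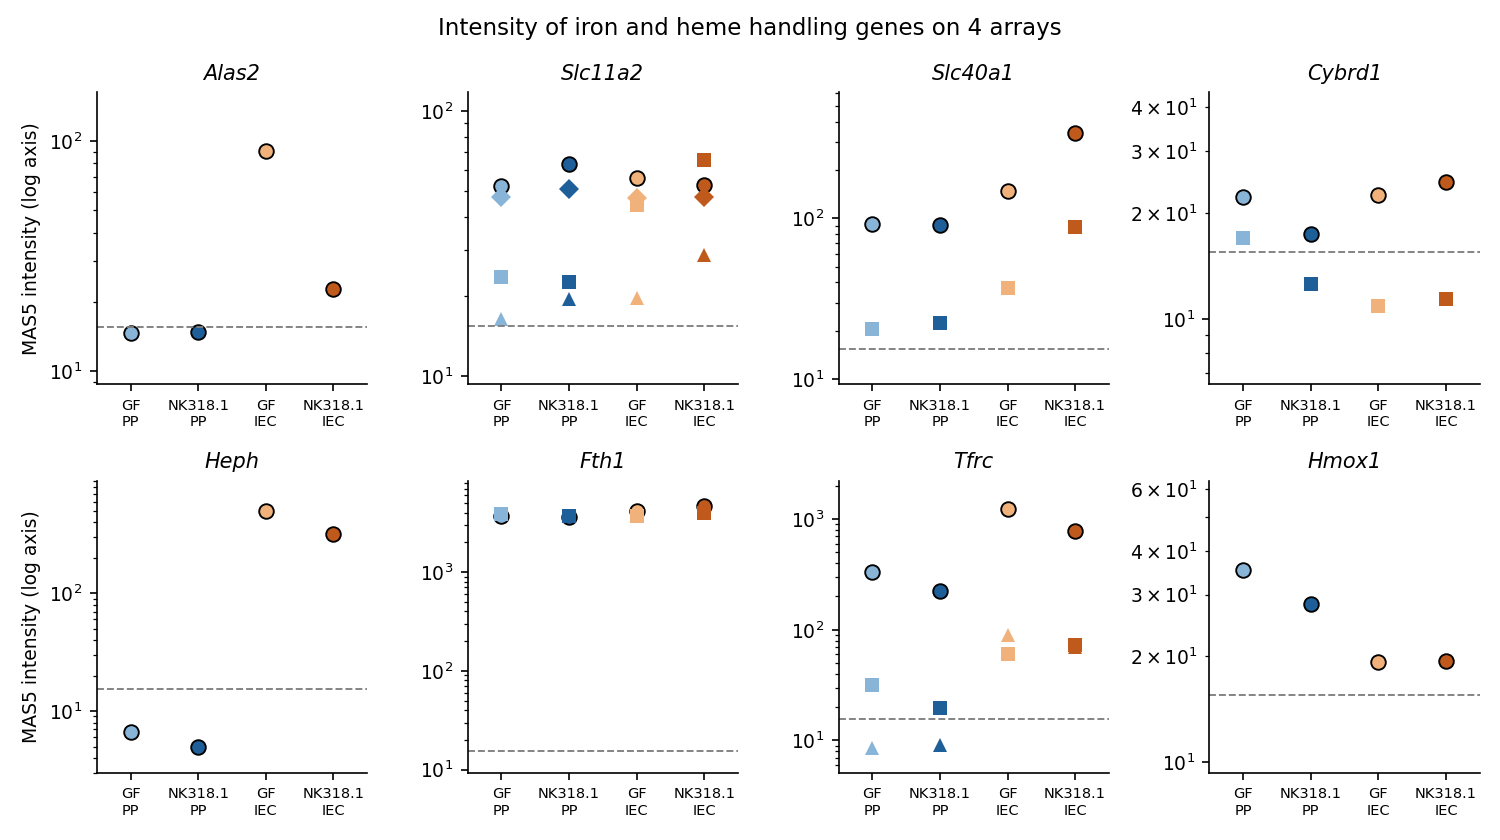
Intensity of each probe set of the 8 genes (log axis) on the 4 arrays, 1 panel per gene, with the floor of 15.5 as a dashed line. Slc40a1 is highest in NK318.1 IEC, Alas2 is above the floor in the IECs only, and Heph and Tfrc are higher in both IEC arrays than in both PP arrays.

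Iron uptake at the brush border is served by Cybrd1, the ferric reductase Dcytb, and Slc11a2, the divalent metal transporter DMT1. Cybrd1 had intensities of 22.2 in GF PP, 17.4 in NK318.1 PP, 22.5 in GF IEC and 24.5 in NK318.1 IEC. All 4 values lay near the floor, and the log2 ratios of colonized to GF mice were −0.35 in the PP and 0.12 in the IECs. Its second probe set read 17.0, 12.6, 10.9 and 11.4 in the same order and passed the floor only in GF PP. Neither probe set of this reductase was thus well above the floor in the epithelium of these mice.

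Slc11a2 was read by 4 probe sets, all above the floor on every array. The one with the highest mean gave 52.1 in GF PP, 63.4 in NK318.1 PP, 56.1 in GF IEC and 52.4 in NK318.1 IEC, with ratios of 0.28 and −0.10. Another gave 23.7, 22.6, 44.2 and 65.7, so that it was higher in NK318.1 than in GF IECs by 0.57 on the log2 scale. The probe sets disagreed on the IECs. The remaining pair gave IEC ratios of 0.54, from intensities of 19.6 and 28.6, and of 0.02, from 47.0 and 47.5. DMT1 transcripts differ at their 5′ and 3′ ends, and which form each probe set reads was not given in the sources used here.

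Export across the basolateral membrane is the task of Slc40a1, which encodes ferroportin, the only known exporter of iron from mammalian cells. Its leading probe set had intensities of 91.9 in GF PP and 91.5 in NK318.1 PP, and of 148 in GF IEC and 339 in NK318.1 IEC. The PP arrays were thus level, with a log2 ratio of −0.01, while the IEC arrays differed by 1.20, or 2.30-fold. The second probe set read 20.6 and 22.4 in the PP and 36.7 and 88.5 in the IECs, a ratio of 0.12 in the PP and 1.27, or 2.41-fold, in the IECs. Both probe sets of ferroportin therefore gave the same order of the 4 groups apart from the PP pair, with NK318.1 IEC highest. The leading IEC ratio lay between 1.14 and 1.24 in every alternative processing tried.

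Ferroportin is made mostly in the proximal small intestine and by macrophages, so markers of gut regions and of macrophages were set beside it. Of 15 markers of the proximal small intestine, 2 were at least 2-fold higher in NK318.1 IECs, and the median over the list was −0.20. These 2 were the transcription factor Pdx1 at 2.83 and the carboxylesterase Ces1g at 1.82. Most stomach and pancreatic markers were also higher on the NK318.1 IEC array, and their part in the Pdx1 and Ces1g values was not tested. Of 14 markers of the ileum, the distal end, 5 were at least 2-fold lower and 1 was above 0, with a median of −0.53. The lowest of these were the bile acid-binding protein Fabp6 at −2.48, the hormone Fgf15 at −1.56 and the vitamin B12 receptor Cubn at −1.55. Over all measured genes in the IECs, 2.63% were at least 2-fold higher and 1.54% lower, with a median of 0.02. Both list medians were below 0, that of the ileum further than that of the proximal part, and most markers of either region stayed within 2-fold. Absorptive enterocyte markers had a median of −0.59 in the IECs, with 1 of 21 above 0. Markers of macrophages, which also export iron, had a median of 0.12 in the IECs with 7 of 13 above 0, and their summed intensity was 1967 in GF and 1011 in NK318.1 IECs. The lysozyme Lyz2 alone, with 1265 and 298, differed by slightly more than the whole sum, so that the other genes together were not lower. The part of these markers in the Slc40a1 ratio was not tested.

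Heph encodes hephaestin, the copper-dependent oxidase that turns exported iron into its ferric form for transferrin. It had intensities of 6.68 and 4.99 in GF and NK318.1 PP, both below the floor, and of 504 in GF IEC and 320 in NK318.1 IEC. The gene was thus read in the epithelium only, and there the NK318.1 array was lower by a log2 ratio of −0.66, or 1.58-fold. The median ratio of the 21 enterocyte markers was −0.59, with 3 at least 2-fold lower, beside 0.02 for all measured genes. The part of the lower enterocyte signal in the Heph ratio was not tested. Slc40a1 and Heph, which act in the same export step, thus lay on opposite sides of 0 in the IECs, as the plot of log2 ratios shows.

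**Figure D2:**
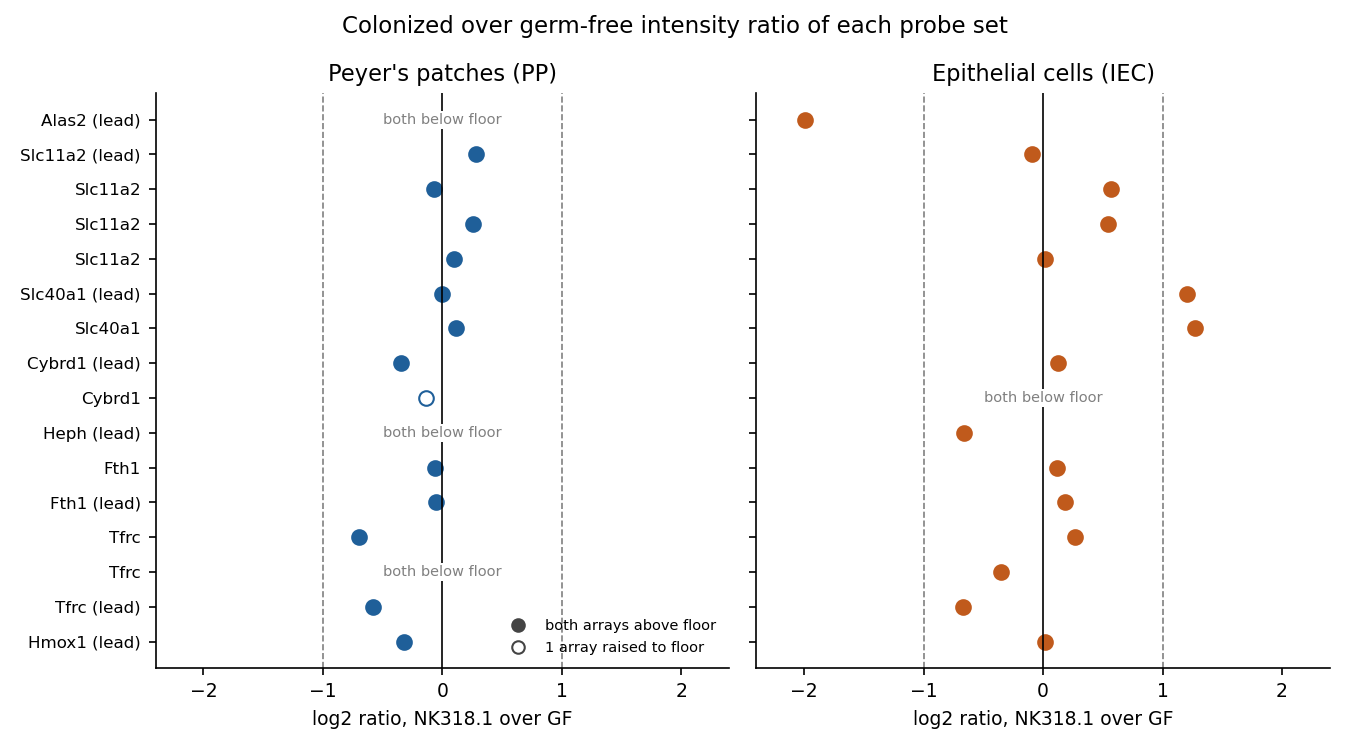
Log2 ratio of colonized to GF intensity for every measured probe set of the 8 genes in the PP and in the IECs, with lines at 2-fold. The 2 probe sets of Slc40a1, at 1.20 and 1.27, lie beyond 2-fold on the higher side in the IECs and Alas2, at −2.00, on the lower side, and every PP value lies inside the lines.

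Storage was read by Fth1, the ferritin heavy chain, which oxidizes iron and lays it down inside the ferritin shell. Its leading probe set had intensities of 3735 in GF PP, 3599.8 in NK318.1 PP, 4132 in GF IEC and 4704 in NK318.1 IEC. The second gave 3845, 3678, 3659.6 and 3961. Fth1 was thus high and nearly level on all arrays, with log2 ratios of −0.05 and −0.06 in the PP and 0.19 and 0.11 in the IECs. Ferritin protein is set mostly by translation, which these RNA values do not read. The ferritin light chain had no probe set of its own in the annotation. A pair of probe sets shared by light chain copies, looked at after the values were seen, gave IEC ratios of 0.33 and −0.06.

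Tfrc encodes transferrin receptor 1, which brings iron-loaded transferrin into dividing cells, lymphocytes and the basal side of the crypt epithelium. Its promoter window is shown because its leading probe set was lower in colonized mice in both tissues. RefSeq (GRCm38.p6) lists more than 1 start for it, and the window shown holds the 250 bases before the downstream one, at chr16:32608872-32609121 on the + strand. Capitals mark ACGTG and GCGTG, the core letters bound by hypoxia-inducible factors, as found by a search of both strands.
Tfrc: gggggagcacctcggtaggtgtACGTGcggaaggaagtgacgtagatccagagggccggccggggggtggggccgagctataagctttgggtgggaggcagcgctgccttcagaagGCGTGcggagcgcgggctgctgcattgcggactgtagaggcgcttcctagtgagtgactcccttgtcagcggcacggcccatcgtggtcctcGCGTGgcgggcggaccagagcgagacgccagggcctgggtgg
Of all 32851 promoter windows of this length, 16.6% held ACGTG and 28.2% held GCGTG on either strand. A match is a description of the letters and not of binding.

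The leading probe set of Tfrc had intensities of 332 in GF PP, 223 in NK318.1 PP, 1241 in GF IEC and 779 in NK318.1 IEC. Colonized mice were thus lower in both tissues, by log2 ratios of −0.58 in the PP and −0.67 in the IECs, short of 2-fold. The second probe set gave 31.8, 19.6, 60.1 and 72.2, which is −0.70 in the PP but 0.26 in the IECs. The third was below the floor in the PP and gave 89.8 and 70.4 in the IECs, a ratio of −0.35. In the PP both measured probe sets were lower in colonized mice, and in the IECs the probe sets differed in direction. The mean over the probe sets gave −0.25 in the IECs in place of −0.67.

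The arrays also carry Tfrc control probe sets for the 3′ end, the middle and the 5′ end of the transcript. The 3′ one read 22.2 in GF and 23.9 in NK318.1 IECs, the middle one 47.3 and 71.3, and the 5′ one 28.7 and 13.4, the last of which is below the floor. In the PP all were below the floor. Along the transcript the NK318.1 IEC array was thus close to the GF array at the 3′ end, higher in the middle and lower at the 5′ end. The β-actin ratio given above moved with this, and its part in the Tfrc values was not tested.

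Since transferrin receptor is a gene of dividing cells, proliferation genes were set beside it. In the PP 0 of 19 measured proliferation genes had a ratio above 0, and their median was −0.50. In the IECs 20 of 20 were above 0, with a median of 0.44. The leading Tfrc probe set was therefore on the same side as the proliferation genes in the PP and on the other side in the IECs. Their part in the Tfrc ratios was not tested.

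Alas2 encodes the erythroid form of 5-aminolevulinate synthase, which makes the first intermediate of heme in developing red cells. Its promoter window, the 250 bases before the start at chrX:150547167-150547416 on the + strand (RefSeq, GRCm38.p6), is shown because Alas2 differed most of the 8 genes between colonized and GF mice. Capitals mark AGATAA, the letters of a GATA factor site, and CACCC, the letters bound by erythroid Krüppel-like factors, which here lie on the opposite strand and so read TTATCT and GGGTG.
Alas2: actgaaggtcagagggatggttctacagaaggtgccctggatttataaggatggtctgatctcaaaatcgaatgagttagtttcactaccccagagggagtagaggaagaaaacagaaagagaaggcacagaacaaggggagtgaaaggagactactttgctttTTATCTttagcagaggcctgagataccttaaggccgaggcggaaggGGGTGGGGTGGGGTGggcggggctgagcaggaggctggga
AGATAA ends 81 bases before the start, and CACCC occurs at 3 places between 40 and 26 bases before it. Of the 32851 windows, 9.99% held AGATAA and 52.0% held CACCC on either strand. In these windows AGATAA was found for Alas2 among the 4 members with a window, which are Cybrd1, Tfrc, Fth1 and Alas2.

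The single Alas2 probe set had intensities of 14.6 in GF PP and 14.8 in NK318.1 PP, both below the floor. In the IECs it had 90.7 in GF and 22.7 in NK318.1 mice. GF IEC was thus the only array on which Alas2 stood well above the floor, and the IEC log2 ratio was −2.00, or 3.99-fold lower in colonized mice. With the floor at the 60th percentile of intensity, the NK318.1 value was raised and the ratio was −1.28.

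Some globin probe sets moved in the same way. The annotation gives no gene of their own to 4 probe sets shared among adult globin genes, which were picked after their values were seen. The 3 shared by adult α-globin genes had intensities of 10262, 8746 and 738.5 in GF IECs and 234, 167 and 10.6 in NK318.1 IECs. The one shared by adult β-globin genes had 5837 and 205. Each of these 4 was thus at least 28.5-fold lower in NK318.1 than in GF IECs, and the 2 α-globin ones above the floor on both arrays were 43.8-fold and 52.4-fold lower. In the PP the GF and NK318.1 arrays read 755 and 846, 528 and 552, and 23.2 and 21.2 on the α-globin probe sets and 377 and 408 on the β-globin one, so that they were nearly level.

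**Figure D3:**
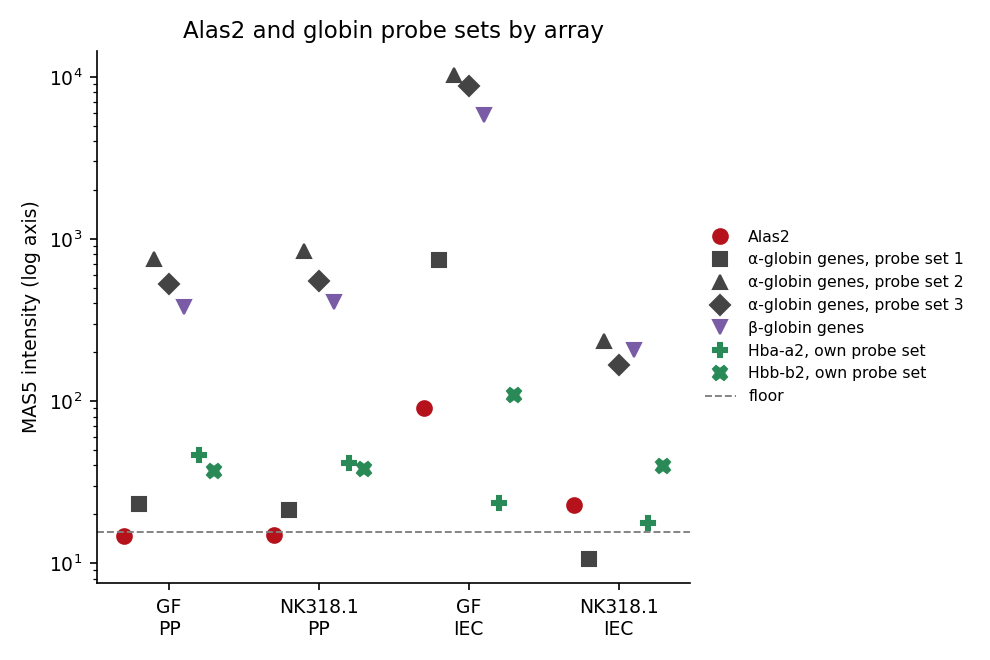
Intensity (log axis) on the 4 arrays of Alas2, of the probe sets shared among adult globin genes, and of Hba-a2 and Hbb-b2 by their own probe sets, with the floor dashed. GF IEC is the highest array for Alas2, the shared probe sets and Hbb-b2, but not for Hba-a2, which is highest in GF PP at 46.6.

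The whole list of erythroid markers did not move alike. Of 28 listed genes, 20 had a probe set of their own and 13 were measured in the IECs, where 1 was at least 2-fold lower and 0 were higher. That 1 was Hbb-b2, an adult β-globin gene, with 109 in GF and 39.4 in NK318.1 IECs and a ratio of −1.47. The other globin genes with a probe set of their own did not follow the shared probe sets. Hba-a2, an adult α-globin gene, had 46.6 in GF PP, 41.2 in NK318.1 PP, 23.3 in GF IEC and 17.7 in NK318.1 IEC, so that it was highest in GF PP and had an IEC ratio of −0.40. The embryonic Hbb-bh1 had an IEC ratio of 0.10, a bound, and Hba-a1 was below the floor on all 4 arrays. The median ratio was −0.10, and the summed intensity of the list lay between 443 and 456 in the PP and at 693 and 603 in GF and NK318.1 IECs. Of the defining regulators and membrane genes, the transcription factor Klf1 had 22.9 and 23.9, and Gata1, Epb42 and Rhag were below the floor on both IEC arrays. The membrane gene Slc4a1 had 17.7 in GF IECs and 13.7, below the floor, in NK318.1 IECs. None was listed at 0. Alas2 was thus lower together with the shared globin probe sets and Hbb-b2, the only marker of the list past 2-fold. Of the 13 measured markers, 6 had a ratio above 0, and markers below the floor on both IEC arrays cannot show a change. The part of blood cells in the Alas2 ratio was not tested.

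Hmox1, heme oxygenase 1, opens the heme ring and releases its iron, and is made by macrophages and by stressed cells. It had intensities of 35.3 in GF PP, 28.3 in NK318.1 PP, 19.3 in GF IEC and 19.5 in NK318.1 IEC. The IEC arrays were level and close to the floor, with a log2 ratio of 0.01, and the PP ratio was −0.32. Macrophage markers had a median of −0.38 in the PP, with 3 of 16 above 0, and their summed intensity was 7788 in GF and 6566 in NK318.1 PP. NRF2 target genes, which answer oxidative stress as Hmox1 does, had a median of −0.02 in the PP. The heat shock genes, another stress group, were above 0 for 10 of 10 there, and 3 of them, Hspa1b, Hspa1a and Hsph1, were at least 2-fold higher, at 1.65, 1.62 and 1.18. In the PP Hmox1 and the medians of the macrophage markers and the NRF2 targets were thus below 0, the last only just. The heat shock genes were above 0 there, and the part of each group in the Hmox1 ratio was not tested.

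Between the tissues, some of the genes had at least 2-fold more signal in IECs than in PP, and none had at least 2-fold less. In GF mice 4 of 16 probe sets were at least 2-fold higher in IECs than in PP, against 12.6% of all measured probe sets, and 0 were lower, against 21.1%. In colonized mice 7 of 15 were higher, against 14.3%, and 0 were lower, against 20.0%. Both comparisons set whole tissues of different cells side by side, and the colonized one uses the array that stood apart.

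Heph differed most, with an IEC intensity at least 32.5-fold above that of the PP in GF and at least 20.6-fold in colonized mice, since the PP value was below the floor. Tfrc was 3.74-fold and 3.50-fold higher in IECs by its leading probe set. Alas2 was at least 5.85-fold higher in GF IECs and at least 1.46-fold in colonized ones. These genes thus separated the tissues in GF mice, and for Alas2 in colonized mice the bound leaves the size of the ratio unknown. Slc40a1 was also higher in IECs, by 0.68 on the log2 scale in GF and by 1.89, or 3.71-fold, in colonized mice. Slc11a2 by its leading probe set, Cybrd1 and Fth1 lay within 2-fold in both kinds of mice. Another Slc11a2 probe set was 2.91-fold higher in IECs in colonized mice, from 22.6 and 65.7, and 1.86-fold higher in GF mice. The remaining pair of Slc11a2 lay within 2-fold. Hmox1 was lower in IECs by log2 ratios of −0.87 in GF and −0.54 in colonized mice.

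For the 4 members whose values spanned at least 2-fold, the 3 genes with the most similar profile over the 4 arrays were found among 14350 genes, by the Euclidean distance between centred log2 values. For Heph they were Cds1, Rab17 and Ces2e, at distances of 0.072, 0.074 and 0.10. For Slc40a1 they were Vstm2b, Sult1a1 and Sytl4, at 0.13, 0.14 and 0.15. The nearest to Tfrc were Flrt3, Slc35f2 and Slc30a4, at 0.10, 0.15 and 0.15, and the nearest to Alas2 were Mfsd4b2, Lonrf3 and Cndp1, at 0.33, 0.33 and 0.39. Alas2 thus had no neighbour as close as those of the other 3 genes, and 4 arrays with 1 value each make such likeness a loose description.

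The other genes of iron and heme handling were taken from lists of 70 further genes with a probe set. By the leading probe set of each, 61 were measured in the PP and 0 were at least 2-fold higher or lower, against 0.149% and 0.573% of all measured genes. In the IECs 66 were measured, 0 were higher, against 2.63%, and 1 was lower, against 1.54%. Their median ratio was −0.07 in the PP and −0.08 in the IECs, beside −0.03 and 0.02 for all genes. Most of the pathway thus lay close to the median of all genes in both tissues, and the plot of the lists shows the spread.

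**Figure D4:**
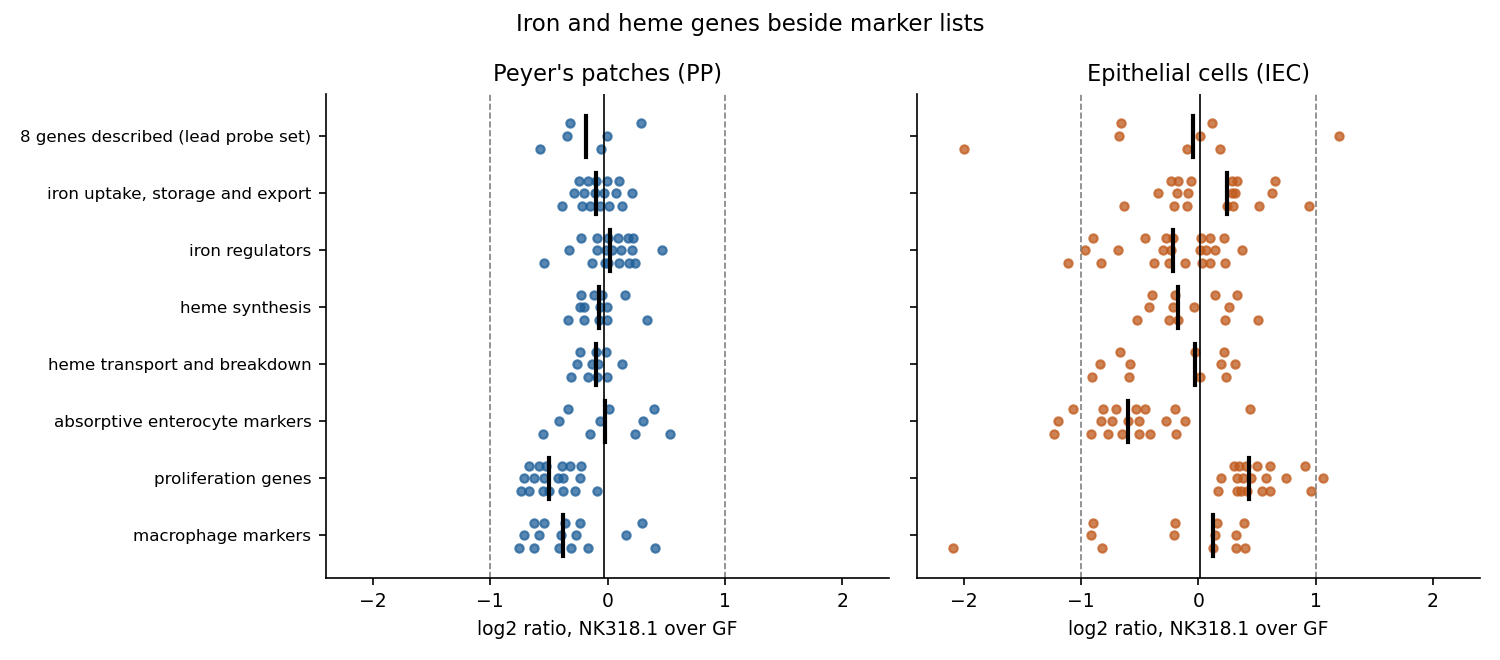
Log2 ratio of colonized to GF intensity for each measured gene (points, bounds included) of the 8 genes described here, the 4 other iron and heme lists, and enterocyte, proliferation and macrophage lists, in the PP and the IECs; thick bars are list medians, the thin line is the median of all genes and dashed lines are 2-fold. Among the 4 other iron and heme lists, Egln3, at −1.11 in the IECs, is the only point beyond 2-fold.

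The gene past 2-fold was Egln3, a prolyl hydroxylase that marks hypoxia-inducible factors for breakdown and is itself induced by low oxygen. It had 29.1 and 20.0 in the PP and 218 and 101 in the IECs, ratios of −0.54 and −1.11. Another probe set of it gave −0.91 in the IECs. The iron regulators to which it belongs had a median of −0.22 in the IECs, with 10 of 23 above 0. Next in that list were Bmp2, a ligand that can drive hepcidin, at −0.96, and Aco1, the iron regulatory protein that binds ferritin and transferrin receptor transcripts, at −0.90, with −0.52 from another probe set. Fbxl5, which marks the other iron regulatory protein for breakdown, had −0.83. The last 3 lay within 2-fold by these probe sets. Other members of the list were above 0, such as Hamp2 at 0.38, the hemochromatosis gene Hfe at 0.23 and Egln2, another prolyl hydroxylase, at 0.22. Hamp, which encodes hepcidin, was below the floor on all arrays.

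Genes of uptake, storage and export had a median of 0.24 in the IECs, with 10 of 19 above 0. Slc25a28 and Slc25a37, the mitoferrins that carry iron into mitochondria, lay at opposite ends, at 0.94 and −0.63. Slc25a28 had 258 and 239 in the PP and 212 and 407 in the IECs, and Slc25a37 had 320 and 270 in the PP and 259 and 168 in the IECs. The iron-binding protein lactoferrin, Ltf, had 0.65 and the endosomal ferric reductase Steap3 0.63. In the PP the lowest of the list was Cp, ceruloplasmin, the blood counterpart of hephaestin, with 187 and 143 and a ratio of −0.39. Other probe sets of Cp, which did not lead, gave PP ratios of −1.06, from 49.98 and 23.9 and so past 2-fold, and of −0.68. Further ones gave −0.43, −0.28 and −0.07, the last from 130 and 123. In the IECs a probe set of the hemopexin receptor Lrp1 that did not lead gave 1.27, a bound from 13.4 and 37.5, while its leading one gave 0.31. Past 2-fold between colonized and GF mice were thus the Cp one at −1.06, the Lrp1 one at 1.27 and that of Egln3. No other probe set of the other iron and heme lists was.

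The heme synthesis genes had a median of −0.17 in the IECs and −0.07 in the PP. Alas1, the form of 5-aminolevulinate synthase found in all cells, had 98.7 and 84.3 in the PP and 428 and 327 in the IECs, ratios of −0.23 and −0.39. The housekeeping enzyme was thus lower in NK318.1 IECs by far less than the erythroid Alas2, each measured on its own probe set. Abcb6, a porphyrin carrier, was highest at 0.51 and Abcb10, a mitochondrial transporter needed for heme synthesis in red cells, lowest at −0.53. In the PP Uros, an enzyme of the middle of the pathway, was highest at 0.34 and Abcb6 lowest at −0.34.

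Genes of heme transport and breakdown had a median of −0.10 in the PP and −0.03 in the IECs. The heme exporters Flvcr1 and Abcg2 were lowest in the IECs, at −0.91 and −0.83, although another probe set of Flvcr1 gave 0.00. The biliverdin reductase Blvrb, which acts after heme oxygenase, was highest in the IECs by leading probe sets, at 0.32. A probe set of Slc46a1 that did not lead gave 0.97 there, from 37.1 and 72.6, while its leading one gave −0.03. None of these reached 2-fold in either tissue.

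Between the tissues, 19 of 65 of these other genes were at least 2-fold higher in IECs than PP in GF mice, against 16.0% of all genes, and 4 were lower, against 18.5%. In colonized mice 23 were higher and 3 lower, against 18.4% and 16.8%. In GF mice the heme synthesis genes had a median tissue ratio of 0.86, with 4 of 13 at least 2-fold higher in IECs and 0 lower.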

How the data were processed

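The authors hybridized labelled RNA to Affymetrix GeneChip arrays and deposited 1 linear MAS5 signal intensity per probe set and array. Which MAS5 version and options they used was not given in the sources used here. Intensities were used without further scaling. Of the 45101 probe sets, 64 are controls, 34945 name 1 gene, 932 name several and were used for no gene, and 9160 have no gene in the platform annotation, whose symbols were updated through Entrez identifiers to RefSeq GRCm38.p6. Where a gene had several, the probe set with the largest log2 intensity, averaged over arrays, led. Each array's 40th percentile was taken, and the median of these was the floor. With 1 array per group the adjusted p named in the methods could not be had, and the number of arrays limits the precision. All probe sets of the 8 genes are given, and of other lists the genes at least 2-fold apart and the 3 highest and lowest per tissue, or, for marker lists, also the 3 with the highest signal; from these some are named. The shared globin and ferritin probe sets, Hamp, Fbxl5, Lrp1, Slc46a1, Hba-a1, Klf1, Slc4a1, Gata1, Epb42 and Rhag were chosen after their values were seen. The members and lists were also set with earlier results of these data known. Promoter windows came from RefSeq for 4 of the 8 genes. The procedure was tested on simulated data. Python 3.11.15, numpy 2.4.6, pandas 2.3.3 and matplotlib 3.10.9 were used. Alternatives were median centring, quantile normalization, other floors, the mean over probe sets, leaving out less specific probe sets, and limits of 1.5-fold and 4-fold.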

Additional observations from a re-analysis of the deposited data

Results flagged for a closer look

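A handful of results had different signs in the PP and the IECs, with the IEC value far from 0 and the PP value close to it. With 1 array per group none of these differences was tested, and a PP value close to 0 gives its sign little weight.

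The log2 ratio of Slc40a1 by its leading probe set was −0.01 in the PP and 1.20 in the IECs, a difference of 1.21. Its second probe set gave 0.12 and 1.27, and so the same sign in both tissues. The ratio of the mitoferrin Slc25a28 was −0.11 in the PP and 0.94 in the IECs, a difference of 1.06. On the adult α-globin probe sets with different signs the ratio was 0.17 and 0.06 in the PP. In the IECs these had −5.45 and −5.71, differences of −5.62 and −5.77. The remaining adult α-globin probe set had −0.13 in the PP and −5.57, a bound, in the IECs, and so the same sign. On the adult β-globin probe set the ratio was 0.11 and −4.83, a difference of −4.94. All rest on the NK318.1 IEC array, on which stomach, pancreatic and leukocyte markers also differed from GF, and their part was not tested.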

How the results depend on the processing

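No paired analysis was possible because a group is 1 array. Of 36 counts of all genes, 26 kept within 1.5 times, as did 32 of 36 counts of the members. Of the member ratios that an alternative still gave, 194 of 194 stayed on the same side of 2-fold. Ratios lost under an alternative were not counted. These were Cybrd1 and Hmox1 at the highest floor, and Fth1 and Alas2 without less specific probe sets. The tissue ratio of Alas2 in colonized mice was also lost at the highest floor. In the PP, genes at least 2-fold higher numbered 29 without a floor, 118 passed 1.5-fold and 4 passed 4-fold, and lower ones numbered 349 and 8 at those limits. In the IECs, higher genes numbered 223 with the mean over probe sets, 1292 at 1.5-fold and 65 at 4-fold, and lower ones 943 and 29. Of the members in the IECs, 0 were higher and 0 lower at 4-fold, 3 were lower at 1.5-fold, and 0 were lower without less specific probe sets, since the only Alas2 probe set is then left out. Signs of ratios near 0 turned for Slc11a2, Hmox1, Slc40a1 and Cybrd1. Values near the floor, as for Cybrd1 and Hmox1, have little signal over background.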
